A study of Eriocheir sinensis with 6 samples.

Results

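In muscle of Eriocheir sinensis, the Chinese mitten crab, genes at 2 places of chromosome CM024135.1 were followed from the pre-molt stage, in which the old shell is still carried, to the post-molt stage, after it has been shed. The gene IDs of this genome hold the chromosome and a number that gives the order of the predicted genes along it, and the members were all listed genes with an order number from 440 to 500 or from 840 to 880. This gave 70 genes of 18729, of which 43 lay in the first window and 27 in the second. The windows were chosen by the FPKM of post-molt against pre-molt libraries of this same table, so the stage values of the members are a description. Their calls in the fit across all genes are given as counts and support nothing. There were 3 libraries per stage, each from a crab of its own by the study's methods. The labels describe healthy farmed animals of 8.41 ± 1.47 g held at 20 °C in both groups, give no genetic change or drug treatment for either, and separate the groups by stage alone. No gene of the files carries a name or a function, so neither the roles of the members nor the labelled tissue could be checked by marker genes. The FPKM columns carry another tissue prefix than the sample titles, but each column was proportional to the muscle column of the same stage letter and replicate number in the authors' comparison table, once gene length was taken into account.

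Crabs grow by shedding a rigid cuticle. Before the molt, hormones of the ecdysteroid family drive the separation of the old cuticle and the laying down of a new one, and in several decapods the claw muscle shrinks so that it can be pulled out. After the molt the soft animal takes up water, expands and hardens its new shell. Neighbouring genes that arose by tandem duplication are often expressed together.

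Expression was taken as FPKM, which relates the fragments of a gene to its length and to the size of the library. Whole fragment counts could be recovered from the FPKM, and they summed to 4168751 to 5117246 per post-molt and 5810064 to 6768307 per pre-molt library. The library size behind the FPKM followed the authors' size factors and not these totals, so the summed FPKM of a library was higher in post-molt (2772125 to 3753646) than in pre-molt crabs (1115974 to 1463554). Log2 fold changes set post-molt against pre-molt and were taken from log2(FPKM + 1), and ratios are those of mean FPKM. The log2 scale understates the change of genes with low values.

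The first window held 22 genes with a log2 fold change of 2 or more, called raised here, among 42 that passed the filter on low values, and the second held 7 among 25. Over all 17465 genes that passed this filter, 4.41% were raised. The raised genes lay in 2 compact runs. The first run went from evm.TU.CM024135.1.460 to evm.TU.CM024135.1.487 and held 21 raised genes among 23 listed genes, while the other 5 order numbers in this span were not analysed here. The second run went from evm.TU.CM024135.1.856 to evm.TU.CM024135.1.862, and 7 of 7 order numbers were raised. Below, genes of this chromosome are called by their order number alone.

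**Figure D1:**
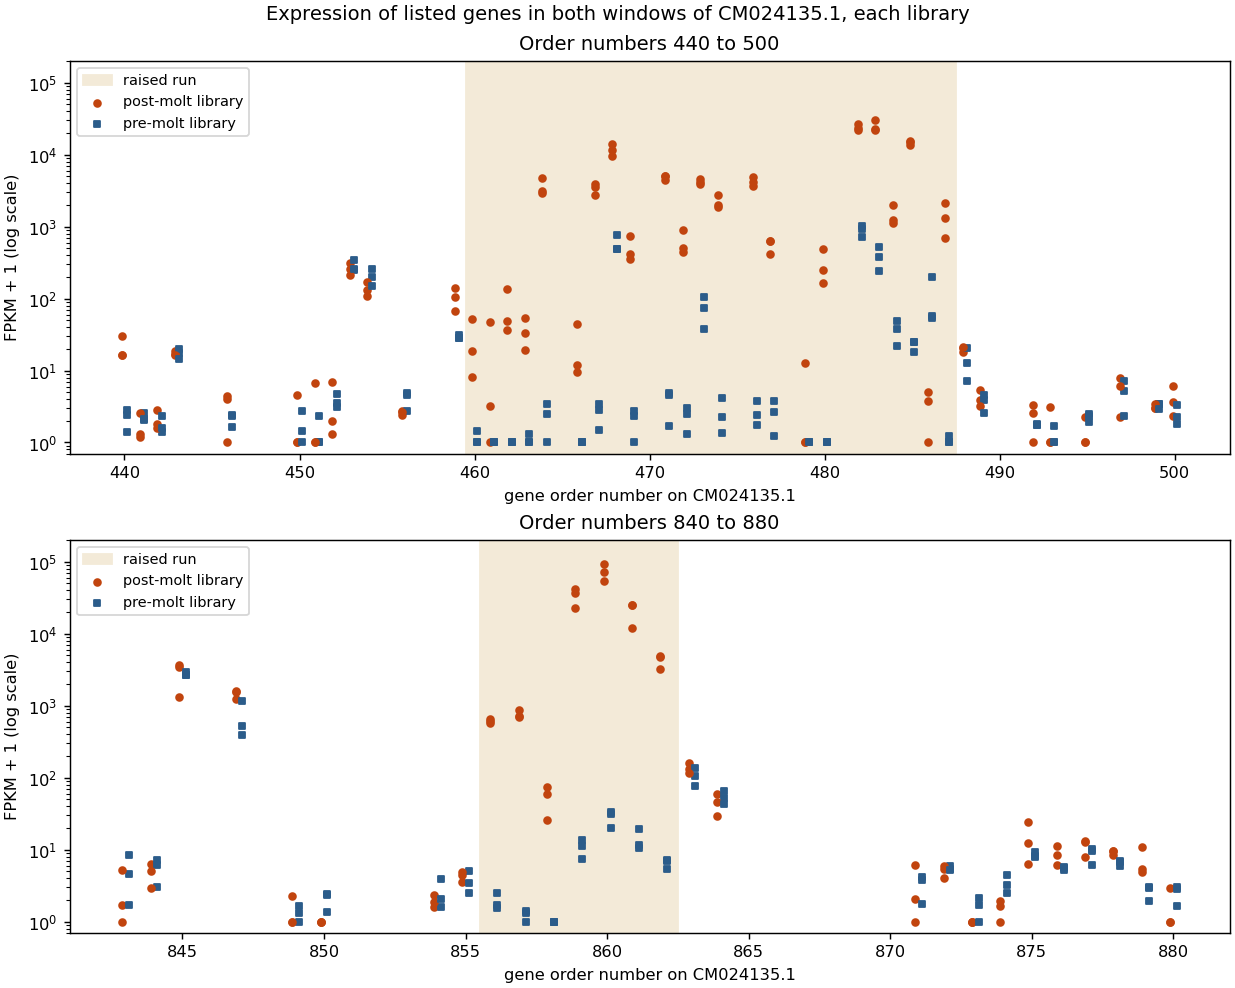
FPKM + 1 on a log scale for every listed gene of both windows, with a point for each library (circles, post-molt; squares, pre-molt) and the gene order number on the horizontal axis. Inside the shaded runs, from 460 to 487 and from 856 to 862, post-molt libraries reached up to 93417 FPKM in gene 860, whereas most genes outside them had overlapping stages.

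Over the whole table, limma called 1036 of 17465 genes higher (5.93%) and 280 lower (1.60%) in post-molt muscle, when both an adjusted p up to 0.05 and a change by at least 1 on the log2 scale were required. By the same limits 22 members of the first window were higher and 1 was lower, and 7 of the second window were higher and 0 lower. With edgeR on the recovered fragments 8.77% of all tested genes were called higher, among them 23 and 7 members. Since this contrast chose the windows, nothing is read from these shares. In bulk tissue, more cells of a type and more RNA per cell cannot be told apart. All post-molt libraries lay above all pre-molt libraries in 20 of the 21 genes of the first run and in 7 of the 7 of the second, which holds for 14.2% of all tested genes. The exception was gene 461, for which 0, 21 and 1 fragments were found in post-molt replicates 1, 2 and 3 and none in pre-molt, so its place in the run rested on replicate 2.

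Genes 860 and 859 of the second run had the highest mean post-molt FPKM of all members. Gene 860 measured 72745, 93417 and 54165 FPKM in post-molt replicates 1, 2 and 3 and 18.9, 30.1 and 32.5 FPKM in pre-molt replicates 1, 2 and 3. The lowest post-molt library thus lay far above the highest pre-molt library, with means of 73442 ± 19635 and 27.2 ± 7.23 FPKM (SD, n = 3), a ratio of means of 2703 and a log2 fold change of 11.35, SE 0.34. Among all genes, 860 held rank 4 in mean post-molt FPKM. Its neighbour 859 measured 42294, 36727 and 23148 FPKM in post-molt libraries and 6.34, 10.2 and 12.7 FPKM in pre-molt libraries, and the ratio of means was 3491. With a log2 fold change of 11.63, SE 0.35, it had the largest fold change on this scale of any member. On the other side, 861 measured 25065, 25151 and 11869.7 FPKM in post-molt libraries and 9.43, 10.6 and 18.2 FPKM in pre-molt libraries (ratio of means 1627, log2 fold change 10.53, SE 0.39). These 3 neighbours carried 95.8% of the post-molt FPKM of the run.

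The other genes of the second run were lower in level and also differed widely between the stages. Gene 862, the last of the run, measured 4691, 4849 and 3219 FPKM in post-molt libraries and 4.46, 6.24 and 5.99 FPKM in pre-molt libraries (ratio of means 765, log2 fold change 9.33, SE 0.28). At the opposite edge, 856 measured 616, 567 and 645 FPKM in post-molt libraries and 0.691, 0.564 and 1.47 FPKM in pre-molt libraries (log2 fold change 8.35, SE 0.28). Its post-molt libraries lay within a factor of 1.14 of each other. Gene 857 measured 726, 691 and 876 FPKM in post-molt libraries, against 0, 1 and 1 fragments in pre-molt libraries. With so few pre-molt fragments the ratio was 3381 when they were pooled, with an exact Poisson 95% interval of 936 to 27918 that covers counting error in pre-molt only. No pre-molt fragment was found for 858, at 58.8, 74.1 and 24.5 FPKM in post-molt, which was at least 184-fold higher when 3 fragments over the pre-molt group were taken as the floor.

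The edges of the second run were sharp. Just before it, 855 measured 3.40, 2.50 and 3.84 FPKM in post-molt libraries and 3.98, 2.44 and 1.51 FPKM in pre-molt libraries, with overlapping stages and a log2 fold change of 0.27. Before that, 854 had a log2 fold change of −0.29. Just after the run, 863 was clearly expressed in both stages, with 158, 129.7 and 114 FPKM in post-molt libraries and 104, 134 and 75.8 FPKM in pre-molt libraries, and its log2 fold change was 0.38. Next to it, 864 stood at −0.29. The mean level therefore went from 4253 to 134 FPKM in post-molt across a single gene boundary, and from 5.56 to 104 FPKM in pre-molt.

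Of the 18 tested members of the second window outside the run, 0 were called and 15 stayed within 1 log2 unit of no change. A pair of them was abundant in both stages. Gene 845 measured 3473, 3701 and 1322 FPKM in post-molt libraries and 2715, 2920.4 and 2679.6 FPKM in pre-molt libraries (log2 fold change −0.11). Post-molt replicate 3 stood below all others there. Gene 847 measured 1580.5, 1232 and 1551 FPKM in post-molt libraries and 517, 1167 and 393 FPKM in pre-molt libraries. By FPKM as deposited its stages did not overlap, but its log2 fold change of 1.22, SE 0.41 was not called. After rescaling to TPM, the log2 fold change of 847 was −0.10. The lowest log2 fold change among tested members of this window was that of 874, with 1, 1 and 0 fragments in post-molt and 6, 7 and 15 in pre-molt libraries (log2 fold change −1.16, not called). The remaining members of this window outside the run had log2 fold changes from −0.98 in 850 to 1.36 in 879. Genes 849 and 873 did not pass the filter.

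The first run was longer and more uneven. Its post-molt means spanned 16.0 FPKM in 461 to 25302 FPKM in 483, and 12 of its 21 genes had a mean of 1000 FPKM or more. Its median log2 fold change was 7.91, with a range of 2.41 to 10.77, and that of the second run was 9.33, with a range of 5.60 to 11.63. Tested members outside the runs had medians of 0.09 in the first window and −0.11 in the second, beside −0.09 over all tested genes.

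A few genes of the first run were already expressed before the molt. Gene 482 measured 21926, 23245 and 26874 FPKM in post-molt libraries and 708, 924 and 1014 FPKM in pre-molt libraries (ratio of means 27.2, log2 fold change 4.78, SE 0.30). Gene 483 measured 22394, 22693 and 30819 FPKM in post-molt libraries and 237, 380.2 and 523 FPKM in pre-molt libraries (ratio of means 66.5, log2 fold change 6.11, SE 0.36). For 468 the values were 9718, 11691 and 13996 FPKM in post-molt libraries and 481, 486 and 771 FPKM in pre-molt libraries (ratio of means 20.4, log2 fold change 4.37, SE 0.32). These 3 held 92.9% of the pre-molt FPKM of the run, and no other gene of either run had a pre-molt mean of 100 FPKM or more. They were also 3 of the 4 most abundant genes of the run after the molt. The remaining gene of those 4, 485, measured 13843, 15417 and 15071 FPKM in post-molt but only 17.1, 24.3 and 23.6 FPKM in pre-molt libraries (ratio of means 682, log2 fold change 9.36, SE 0.27). A middle position was held by 473, with 37.0, 104 and 73.2 FPKM in pre-molt and 3906, 4590.0 and 4228 FPKM in post-molt libraries, and by 484, with 21.0, 47.1 and 37.1 and 1128, 2014 and 1249 FPKM.

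The other genes of the first run had few fragments before the molt, at most 44 over the group, in gene 471. Gene 464 measured 4775, 3159 and 2962 FPKM in post-molt libraries and had 5, 0 and 9 fragments in pre-molt libraries (log2 fold change 10.77, SE 0.46, the largest of the run). Gene 476 measured 4219.8, 4933 and 3724 FPKM in post-molt libraries, with 2, 6 and 4 pre-molt fragments (log2 fold change 10.73, SE 0.33). Genes 471 and 467 followed. The former measured 4990.0, 5118 and 4505 FPKM in post-molt libraries with 4, 16 and 24 pre-molt fragments (log2 fold change 10.50), and the latter 2714, 3539 and 3915 FPKM with 2, 6 and 11 pre-molt fragments (log2 fold change 10.43). Gene 474 measured 2013, 2787 and 1888 FPKM in post-molt libraries with 1, 3 and 10 pre-molt fragments (log2 fold change 9.89). At a lower level, 472 measured 442, 506 and 908 FPKM in post-molt libraries with 1, 5 and 5 pre-molt fragments (log2 fold change 8.10), and 480 was not detected in pre-molt and measured 165, 483 and 249 FPKM in post-molt, at least 1058-fold above the floor of 3 fragments over the group. In all, 4 genes of the first run had no pre-molt fragment, 3 had 1 to 9 over the group, and 14 had 10 or more.

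The right edge of the first run was sharp as well. The last raised gene, 487, measured 1303, 686 and 2128 FPKM in post-molt libraries and rested on 1 fragment in pre-molt, which gave a pooled ratio of 16842 with a Poisson 95% interval of 3023 to 665226. Directly after it, 488 had 16.8, 19.7 and 20.1 FPKM in post-molt libraries and 11.8, 19.4 and 6.25 FPKM in pre-molt libraries (log2 fold change 0.68), and 489 had a log2 fold change of 0.20. The left edge was gradual on the log2(FPKM + 1) scale. Gene 459, outside by the limit of 2, measured 139, 67.2 and 103 FPKM in post-molt libraries and 27.1, 27.4 and 30.3 FPKM in pre-molt libraries. By FPKM as deposited its stages did not overlap, and its log2 fold change was 1.77, SE 0.32. After rescaling to TPM the log2 fold change of 459 was 0.46. Before it, 456 stood at −0.61. The first raised genes, 460 to 463, were sparse, with post-molt means of 16.0 to 72.7 FPKM. Gene 460 had 42, 10 and 4 fragments in post-molt and 0, 0 and 1 in pre-molt libraries. By ratio of means the step was larger, from 3.64 in 459 to 177 in 460, but the latter rested on that 1 pre-molt fragment.

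Gene 486 went the other way inside the first run. It measured 0, 3.99 and 2.72 FPKM in post-molt libraries and 201, 53.1 and 56.1 FPKM in pre-molt libraries, from 0, 3 and 2 and 572, 123 and 175 fragments, with a ratio of pre-molt to post-molt means of 46.3 and a log2 fold change of −5.01, SE 0.70. It lay between 485 and 487, whose mean post-molt levels were 14777 and 1372 FPKM. The other gene inside the run that was not raised was 479, with 0, 5 and 0 fragments in post-molt and none in pre-molt.

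Outside the first run, 440 was the only other raised member of its window, with 29.4, 15.2 and 15.6 FPKM in post-molt libraries and 1.86, 0.381 and 1.41 FPKM in pre-molt libraries (log2 fold change 3.25, SE 0.41). It opened the window, and the gene just outside it, 439, was raised too, at 11.7 ± 6.62 and 0.856 ± 0.0950 FPKM (log2 fold change 2.61). The gene that closed the first window, 500, and the next tested gene, 502, had log2 fold changes of 0.63 and −0.01. The second window opened with 843 at −0.96 and closed with 880 at −0.75, and the tested genes just outside, 839 and 881, were at 0.57 and −0.75. Of the 21 tested members of the first window outside the run, 17 stayed within 1 log2 unit of no change. The more abundant of these were 453, with means of 259 ± 48.7 after and 281 ± 49.3 FPKM before the molt, and 454, with 136 ± 31.0 and 201 ± 53.8 FPKM (SD, n = 3). Gene 493 did not pass the filter.

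**Figure D2:**
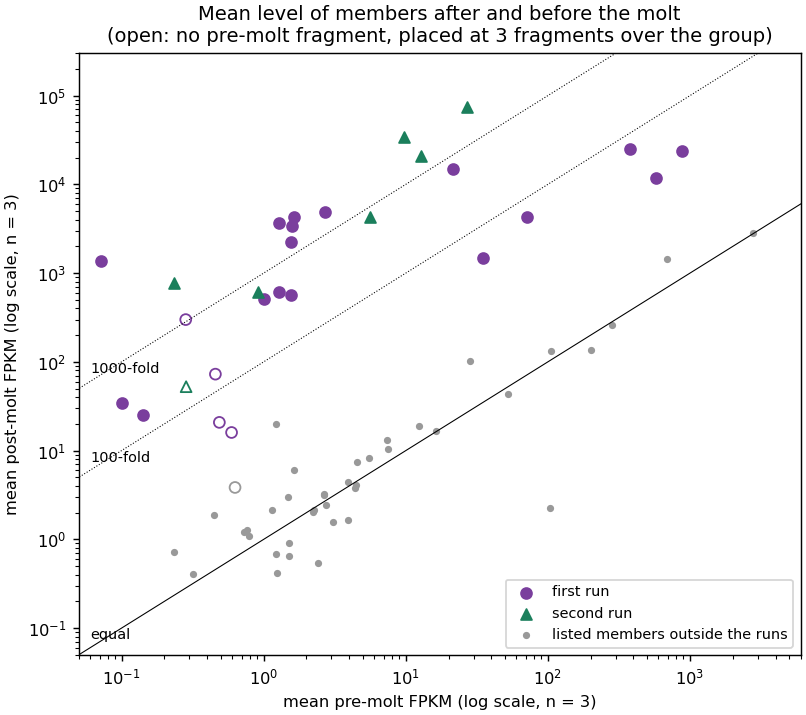
Mean post-molt FPKM against mean pre-molt FPKM for the members, both on log scales and over 3 libraries, with lines for equal levels and for 100-fold and 1000-fold differences. The genes of the second run that had a pre-molt fragment lie between 671 and 3491-fold, and gene 468 lies closest to the equal line among genes of the runs, at 20.4-fold. Open symbols are genes with no pre-molt fragment, placed at 3 fragments over the group, and 850 and 873, which had no post-molt fragment, are left out.

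The level before the molt was a small and uneven part of the level after it. Among genes with 10 or more pre-molt fragments, the ratio of means ran from 20.4 to 2815 in the 14 such genes of the first run and from 671 to 3491 in the 5 of the second. In 5 and 3 of these genes, the pre-molt mean was under 0.1% of the post-molt mean, down to 0.0355% and 0.0286%. Genes that were high after the molt also tended to be the higher ones before it: Spearman's rho between post-molt and pre-molt mean FPKM was 0.894 across the 21 genes of the first run and 0.929 across the 7 of the second. These are descriptions across genes that share libraries, and genes are not independent replicates. The same rho over all tested genes was not computed. No pre-molt fragment was found for 4 of the 21 genes and 1 of the 7, so their pre-molt ranks were tied at 0. Whether any of the pre-molt fragments were carried over from post-molt libraries was not tested.

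Both runs took a large part of the post-molt signal. The first run held 3.42, 2.99 and 3.03% of the FPKM total in post-molt replicates 1, 2 and 3, and 0.109, 0.135 and 0.221% in pre-molt replicates 1, 2 and 3. The means were 3.14% ± 0.238 and 0.155% ± 0.0582 (SD, n = 3). The second run held 5.27, 4.72 and 2.50% in post-molt and 0.00289, 0.00397 and 0.00637% in pre-molt libraries, with means of 4.17% ± 1.47 and 0.00441% ± 0.00178. Together the 28 genes made up 7.31% ± 1.62 of the post-molt and 0.159% ± 0.0600 of the pre-molt total. On the chromosome itself, they accounted for 91.3% ± 1.03 of its FPKM after the molt and 5.54% ± 2.15 before it.

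As shares of fragments, which do not count short genes more strongly, the first run held 2.06% ± 0.142 in post-molt and 0.0824% ± 0.0324 in pre-molt, and the second 4.65% ± 1.45 and 0.00442% ± 0.00175 (SD, n = 3). The whole windows held 0.205% and 0.283% of the pre-molt FPKM total, so nearly all of the pre-molt signal in the second window came from genes outside the run, chiefly 845 and 847. The share does not depend on the library size. Its mean was 20.3 times higher in post-molt for the first run and 944 times for the second, whereas the ratios of summed FPKM were 52.2 and 2376. With every library rescaled to a common sum (TPM), the median log2 fold change of the runs became 6.36 and 7.93, beside −0.78 over all tested genes.

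**Figure D3:**
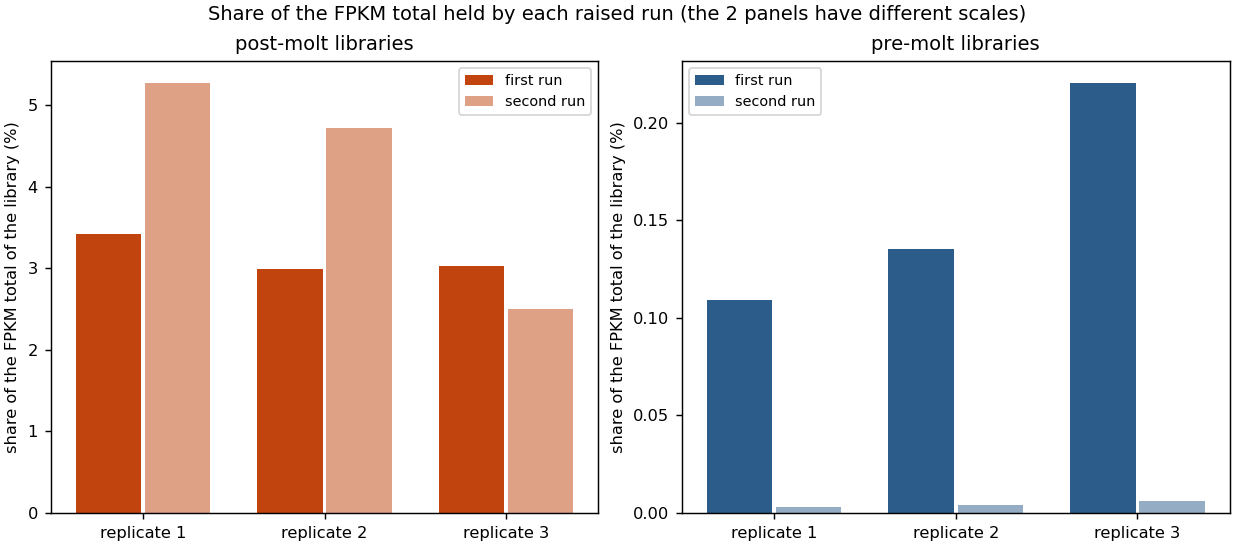
Share of the FPKM total of each library held by the first run (dark bars) and the second run (light bars), in post-molt libraries on the left and pre-molt libraries on the right, on different linear scales that start at 0. The second run exceeds the first in post-molt replicates 1 and 2 but not in replicate 3, where it holds 2.50%.

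Among post-molt crabs, the first run was highest relative to the second in replicate 3. The first run summed to 94749, 102286 and 113584 FPKM in post-molt replicates 1, 2 and 3, and the second to 146196, 161477 and 93948 FPKM. By FPKM as deposited, replicate 3 was thus the highest library for the first run and the lowest for the second. By share of the FPKM total, both runs were highest in replicate 1, and the lowest library was replicate 2 for the first run and replicate 3 for the second. The ratio of the first sum to the second, which does not depend on how libraries are scaled, was 0.648, 0.633 and 1.21. Without genes 468, 482 and 483, which were left out after their values were seen, the first run summed to 40711, 44657 and 41895 FPKM, so that replicate 2 was the highest library as deposited for both runs, and the ratio was 0.278, 0.277 and 0.446. Whether the runs vary together therefore depended on the scaling and on these 3 genes, while the ratio was highest in replicate 3 with and without them. With 3 libraries no correlation was computed.

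The second run was itself divided by the order of its post-molt libraries, a split made after the values were seen. By FPKM as deposited, genes 856 and 857 were highest in post-molt replicate 3, at 1.05 and 1.21 times replicate 1, while all 5 genes from 858 to 862 were lowest there, at 0.417 to 0.745 times replicate 1. Replicate 3 was the lowest library for 34.2% of all tested genes and for 11 of the 25 tested members of this window, those of the run included. The order was not limited to the run. Genes 863 and 864, just after it and not raised, were also lowest in replicate 3, at 0.725 and 0.474 times replicate 1. Genes 854 and 855, just before it, were highest in replicate 3, with 2 to 4 fragments per post-molt library. The summed FPKM of 856 and 857 was 0.927, 0.786 and 1.65% of that of 859 to 862 in post-molt replicates 1, 2 and 3. No scaling of the libraries changes this ratio. Gene 858, with no pre-molt fragment, was left out of it, and the contrast rested on replicate 3 alone. After rescaling to TPM, 858 to 862 were still lowest in replicate 3, whereas 856 and 857 were highest in replicate 1. The share of all tested genes lowest in replicate 3 as TPM was not computed.

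Genes of the first run were not all highest or lowest in the same library. By FPKM as deposited, 4 were highest in post-molt replicate 1, 11 in replicate 2 and 6 in replicate 3, where 33.7%, 30.4% and 35.9% of all tested genes were. As TPM or per recovered fragment total, the counts were 9, 7 and 5, so the leading library changed with the scaling. The shares of all tested genes under these scalings were not computed for post-molt libraries. Among the 16 with 100 or more fragments in every post-molt library, the highest library was 1.11 to 3.10 times the lowest. The median of this ratio by FPKM as deposited was 1.46, beside 1.64 over 1234 tested genes with that depth. The 16 and the 1234 genes were not matched in fragments beyond this limit. Gene 485 was the steadiest of the 16 and 487 the most variable by FPKM as deposited. The ratios were not computed as TPM. Close neighbours could differ in order, as 463 and 464 were highest in replicate 1, 467 and 468 in replicate 3, and 469 and 474 in replicate 2, both as deposited and as TPM.

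**Figure D4:**
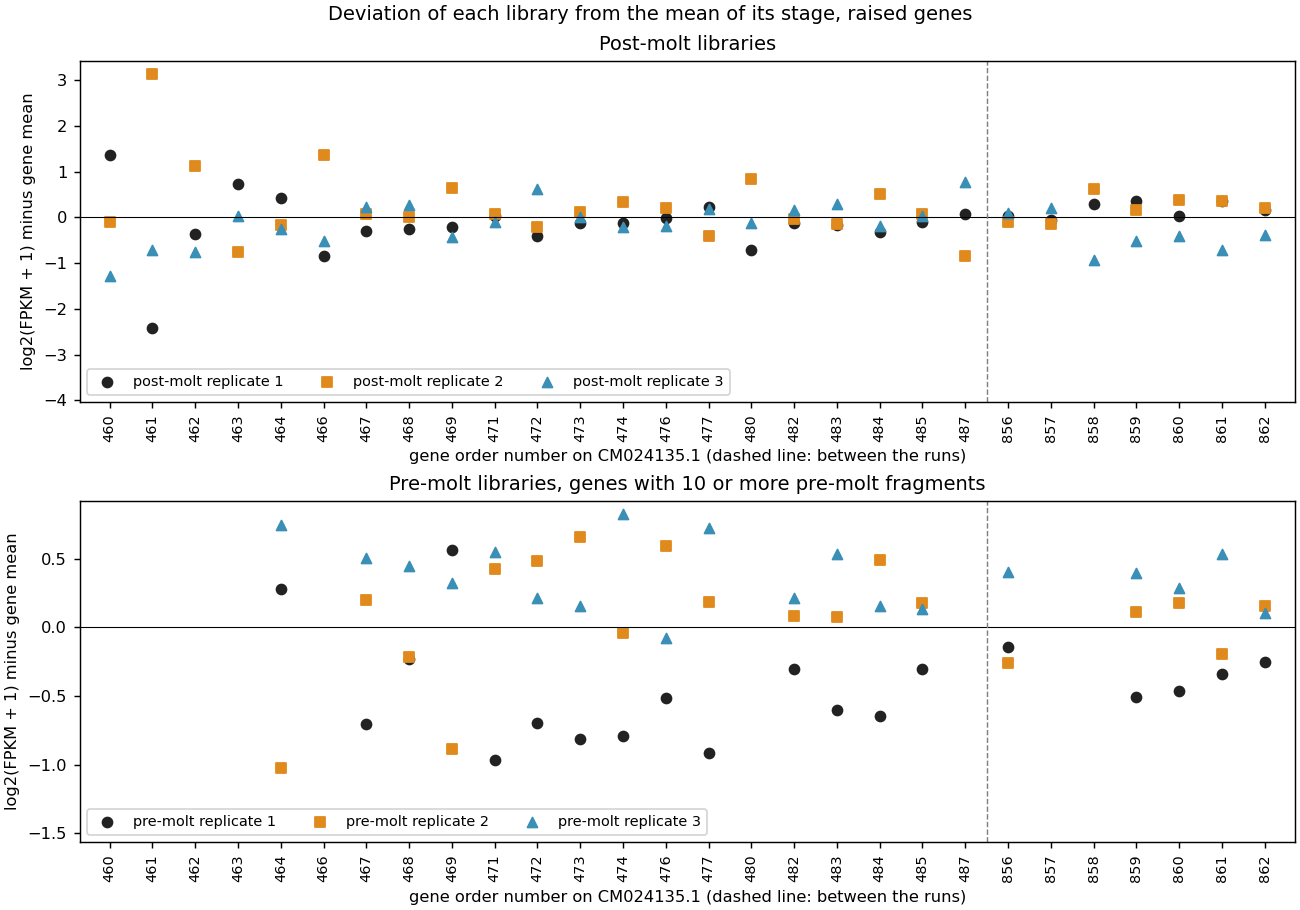
Deviation of each library from the mean of its stage on the log2(FPKM + 1) scale, for the 28 raised genes after the molt (upper panel) and the 19 with 10 or more fragments before it (lower panel), in chromosome order. After the molt, replicate 3 is lowest in genes 858 to 862, and before the molt replicate 1 is lowest in 16 of 19 genes.

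Among pre-molt crabs, both runs were lowest in replicate 1. The first run summed to 1507, 1979 and 2462 FPKM in pre-molt replicates 1, 2 and 3, and the second to 39.9, 58.1 and 71.1 FPKM. With all genes, replicate 3 was the highest for both, and the ratio of the sums was 37.8, 34.1 and 34.6. Without genes 468, 482 and 483, the first run summed to 81.4, 189 and 153 FPKM, so that replicate 1 was still lowest but replicate 2 was highest, unlike in the second run. Of the 19 raised genes with 10 or more pre-molt fragments, 16 were lowest in replicate 1, where 23.6% of all tested genes with that depth were. All 9 with 100 or more pre-molt fragments were lowest in replicate 1, where 17.5% of 6833 tested genes were, and their level in replicate 3 was 1.38 to 2.21 times that in replicate 1. After rescaling to TPM, 8 of them were lowest in replicate 1, beside 28.0% of tested genes. Gene 486, which was lower after the molt, was highest in pre-molt replicate 1. Genes of a run share their libraries, so these counts are a description.

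The raised genes were short. Lengths in the first run ran from 381 to 1241 bases with a median of 677, and 20 of 21 were under 1153 bases, the median of all listed genes. Lengths in the second run ran from 673 to 1433 bases with a median of 963, and 6 of 7 were under that median. Over all 1036 genes called higher, the median was 1178 bases and 48.6% were under 1153 bases. The longest of the first run was 471 and the shortest 484. Only uniquely aligned fragments were counted, so fragments shared by near-identical neighbours would have been left out. Whether the members resemble each other in sequence was not tested, as no sequence of this genome build was used here.

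The rest of chromosome CM024135.1 held no other run of 3 or more raised genes. Of 356 tested genes outside the windows, 16 (4.49%) passed limma's limits as higher and 5 as lower, and the median log2 fold change was −0.06. Between the windows lay 135 tested genes, of which 10 were called higher and 0 lower, and their median was 0.01.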

How the data were processed

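RNA-seq was compared between 3 post-molt and 3 pre-molt muscle libraries, grouped by their titles. By the study's methods and the notes on processing that the submitters gave, HISAT2 2.0.5 served for alignment and featureCounts 1.5.0-p3 for counting unique alignments. Build name and strand setting are not given in the sources used here. In the deposited table the authors gave FPKM for 18729 genes, the highest library of each being at or above 1.00. They also deposited a comparison table for 1684 genes with a normalized signal per library (counts over a size factor), gene lengths, 2 columns of group means, and their own fold changes and p-values, which were not used. Each signal column was whole multiples of 1 step (100% of values within 0.01), and 100% of FPKM genes gave whole fragments (tolerance 1e-06). Known gene lengths came out exactly in 98.6% of cases, and simulated ones in 97.3%.

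The fit was limma 3.58.1 in R 4.3.3 on log2(FPKM + 1), with a trend in the variance prior and stage as the only term, for the 17465 genes whose mean FPKM reached 0.5, and Benjamini-Hochberg adjustment, tested on simulated data. Calls needed an adjusted p up to 0.05 and a change by at least 1 on the log2 scale. A run joined raised genes (log2 fold change of 2 or more) with at most 3 consecutive tested genes between neighbours that were not raised. Shares, edges and orders were described without a test. Where a group had no fragment, 3 fragments over the group were the floor, and intervals cover counting error only. The members, lists and limits were chosen with earlier results of these data known. Named genes were the 8 largest fold changes, 5 highest post-molt and 3 highest pre-molt means, falls of 1 or more and genes at the edges of each window's run; 439, 440, 453, 454, 463, 469, 473, 479, 480, 484, 850 and the genes at the ends of the windows were named after their values were seen. The checks with genes 468, 482 and 483 left out and with limits of 100 fragments were also chosen after seeing the data. Alternatives were other pseudocounts, filters and scalings, edgeR 4.0.16 and DESeq2 1.42.0 on recovered fragments, a replicate block, other run limits and leaving out each library.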

Additional observations from a re-analysis of the deposited data

How the results depend on the processing

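The first run held 15 to 23 raised genes under the alternatives and the second 7 or 8; with no gap allowed the first run ended at 477, and at a limit of 1 the runs began at 459 and 847. Without post-molt replicate 2, the first run began at 459 and held 21 genes. Leaving out 1 library gave 21 to 22 and 7 to 8 members called higher, and 783 to 1406 genes called over the whole table, with 783 without pre-molt replicate 1 and 803 without pre-molt replicate 3, beside 1316 with all libraries. The median log2 fold change of tested members of the first window, 2.83, was 4.23 with a pseudocount of 0.1, 1.81 with 5, 4.57 with a mean FPKM of 2 or more, 4.53 with edgeR, 4.54 with DESeq2 and 2.41 to 3.41 without 1 library. The cause of these shifts was not tested. Rescaling to TPM, which moved the median of all genes to −0.78, called 6490 genes over the table, called 5 and 3 members lower in the windows against 1 and 0, and gave window medians of 1.69 and −0.58. Quantile normalization called 2 and 1 members lower. The first window held 2.09% of post-molt fragments against 3.16% of FPKM, and 2.40% of FPKM without gene 483. The second held 4.31% and, without gene 860, 2.04%. The first run summed to 42421 FPKM in post-molt and 141 in pre-molt without genes 468, 482 and 483, a check added after seeing the data.

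The highest post-molt library of genes in the first run depended on the scaling: replicates 1 and 2 were highest in 9 and 7 genes under TPM and also in 9 and 7 per recovered fragment total, against 4 and 11 as deposited. Over all tested members of the first window the counts for replicates 1, 2 and 3 were 11, 20 and 11. In the second window, 11 tested members were lowest in replicate 3, as more genes are counted. With 100 or more fragments in every post-molt library, a limit added after seeing the data, 2 genes of the first run were highest in replicate 1. Replicate numbers did not pair the samples (correlations of deviations −0.03, −0.03 and −0.05), and with the replicate block 1003 genes were called, with the same 30 members called in both fits. Of 165 values under alternatives, 136 stayed within 1.5 times or within the spread between libraries and 29 did not. Depth limits low genes more in post-molt crabs, in which 1 fragment of a gene of median length stood for 0.493 to 0.742 FPKM (0.175 to 0.236 in pre-molt).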

Other observations

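By the same rule, 53 runs of 3 or more raised genes were found across the chromosomes, 2 of them on CM024135.1. The run from 460 to 487 held the most raised genes of all 53, with 21, followed by 17 genes on CM024112.1 and 12 on CM024108.1. By summed post-molt FPKM, a run of 6 genes on CM024166.1 stood first with 237857 FPKM, and the runs from 856 to 862 and from 460 to 487 came next with 133874 and 103540 FPKM. The ratios of summed FPKM between the stages were 524 on CM024166.1, 2376 for 856 to 862 and 52.2 for 460 to 487. These runs were found and ordered on the same libraries that defined raised genes, so their order is a description.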
